A study of Mus musculus with 20 samples.

Results

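The genes followed here are 41 genes, of 24552 in the table, that encode proteins of the extracellular matrix other than collagens or proteins that act on it. They were taken by symbol from a list of matrix proteoglycans, glycoproteins and crosslinking enzymes. Levels were measured by 3′ RNA sequencing of corneal epithelium from 20 female C57BL/6J mice in 4 groups of 5. The labels give the ages as 2 to 3 months (2-month, the young group), 12 to 13 months (12-month), 18 to 19 months (18-month) and 24 to 25 months (24-month). All mice were unwounded, no agent was given, and each library held the epithelium of both corneas of 1 animal, scraped off by debridement. The reads counted on genes numbered 6699383 in the shallowest library and 10762360 in the deepest. The epithelial identity of the material was checked with 12 markers of corneal epithelium, none of which was at 0, and the keratin *Krt12* had group means of 255490, 232471, 238829 and 250918 normalized counts at 2, 12, 18 and 24 months. A normalized count is the number of reads on a gene divided by the size factor of its library. Of the 41 genes, 28 had a mean of at least 10 normalized counts over the 20 libraries and were tested, and 13 were too low to test. A mean of 10 stood for 7.6 to 13.3 reads, depending on the library.

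The corneal stroma is built of thin collagen fibrils whose diameter and spacing are set by small leucine-rich proteoglycans, such as decorin, lumican and keratocan. Stromal keratocytes are the main known source of these proteoglycans in the cornea. Matricellular proteins, such as SPARC and the thrombospondins, bind matrix and regulate how cells attach to it rather than bearing load themselves. Elastin and the fibrillin microfibrils form elastic fibers, and lysyl oxidases crosslink both collagen and elastin. Corneal epithelial cells also make matrix proteins of their own, among them fibronectin, which serves as a substrate for migrating epithelium.

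Promoter windows of 4 genes are shown because 3 of them, *Sparc*, *Fstl1* and *Serpinf1*, fell with age and *Ecm1* was called at no age. Each window runs from 250 bases before to 50 bases after a start given by RefSeq for GRCm38.p6. For *Sparc*, *Fstl1* and *Serpinf1* this is the outer end of the gene, whereas the *Ecm1* window belongs to a start inside the outer end of that gene. Capitals mark matches, on either strand, to the TATA box (TATAAA), the GC box (GGGCGG), the CCAAT box (CCAAT) and the AP-1 site (TGANTCA).
Sparc (chr11:55420031-55420330, minus strand): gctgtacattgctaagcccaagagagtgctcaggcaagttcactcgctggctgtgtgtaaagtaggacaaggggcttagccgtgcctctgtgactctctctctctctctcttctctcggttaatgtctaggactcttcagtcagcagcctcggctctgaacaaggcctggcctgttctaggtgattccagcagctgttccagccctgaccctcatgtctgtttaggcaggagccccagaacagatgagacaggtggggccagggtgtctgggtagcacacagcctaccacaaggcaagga
Fstl1 (chr16:37776805-37777104, plus strand): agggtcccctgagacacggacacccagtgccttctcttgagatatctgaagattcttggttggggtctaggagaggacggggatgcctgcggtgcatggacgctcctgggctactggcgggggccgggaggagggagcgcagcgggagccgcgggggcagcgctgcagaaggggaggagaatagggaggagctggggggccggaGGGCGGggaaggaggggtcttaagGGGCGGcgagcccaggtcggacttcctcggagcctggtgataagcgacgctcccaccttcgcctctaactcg
Serpinf1 (chr11:75422574-75422873, minus strand): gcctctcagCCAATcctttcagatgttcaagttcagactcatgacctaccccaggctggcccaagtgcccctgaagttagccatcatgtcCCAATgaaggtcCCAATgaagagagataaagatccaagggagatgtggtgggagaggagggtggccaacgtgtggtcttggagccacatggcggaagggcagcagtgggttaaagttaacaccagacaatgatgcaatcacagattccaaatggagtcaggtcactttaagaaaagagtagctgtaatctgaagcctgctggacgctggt
Ecm1 (chr3:95739520-95739819, minus strand): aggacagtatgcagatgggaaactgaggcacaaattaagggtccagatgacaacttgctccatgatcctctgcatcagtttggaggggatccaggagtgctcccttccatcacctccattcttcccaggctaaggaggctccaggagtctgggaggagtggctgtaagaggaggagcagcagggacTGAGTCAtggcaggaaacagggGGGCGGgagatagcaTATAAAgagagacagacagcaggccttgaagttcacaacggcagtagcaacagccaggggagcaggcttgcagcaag
The *Sparc* window held none of these letters, the *Fstl1* window held 2 GC boxes and the *Serpinf1* window held 3 CCAAT boxes. The *Ecm1* window held 1 TATA box, 1 GC box and 1 AP-1 site. No motif was found in all 3 windows of the genes that fell. Promoter windows were matched for 27 of the 41 genes, which had 38 windows, since some genes have several starts. A TATA box was in 18.4% of these 38 windows and in 13.6% of all 32841 promoter windows of the same length. The GC box was in 52.6% against 35.7%, the CCAAT box in 39.5% against 37.4%, and the AP-1 site in 5.26% against 7.81%. Of the genes given per library below, *Dcn*, *Eln*, *Mgp*, *Ccdc80*, *Lum*, *Lox* and *Loxl1* had no window in the table.

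Whether the levels of these genes differed between young and aged corneal epithelium was tested with limma on log2(normalized count + 1), in 1 fit of the 4 ages. Against the young group, *Sparc* and *Fstl1* fell at 12, 18 and 24 months, and *Dcn* and *Serpinf1* fell at 24 months. A gene was called when its Benjamini-Hochberg adjusted p over the 11288 genes tested was at most 0.05 and it differed by at least 1.2-fold. At 12 months 2 of the 28 tested genes were called lower, beside 0.301% of all genes tested. At 18 months it was 2 of 28, beside 0.337%, and at 24 months 4 of 28, beside 0.47%. When all 15 aged libraries were set against the 5 young libraries, 5 of 28 were called lower (*Dcn*, *Sparc*, *Fstl1*, *Eln* and *Ccdc80*), beside 0.532% of all genes. This count was 13 with voom on the recovered reads, and it was 3 (*Dcn*, *Sparc* and *Fstl1*) with the replicate block, with a pseudocount of 0.1, with a filter of 50 or without young replicate 1, 2 or 5. The shares of all genes called under these alternatives are not given here, so these counts cannot be set against other genes. None of the 28 was called higher in any of these comparisons, beside 0.23%, 0.337%, 0.31% and 0.478% of all genes. Values that missed the adjusted threshold also lay mostly below the young group. With an unadjusted limma p under 0.05, 16, 13 and 18 of the 28 were lower at 12, 18 and 24 months, and 0 were higher, beside 4.96%, 3.84% and 5.04% of all genes tested that were lower and 4.6%, 3.34% and 4.93% that were higher. All 5 aged libraries lay below all 5 young libraries for 7, 3 and 7 genes of the 28, beside 1.06%, 1.01% and 1.55% of all genes tested. The genes were chosen with earlier results of these data known, so these counts are no independent test of the list.

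The filter itself touched these counts. Of the 28 genes that passed it, 6 (*Sparcl1*, *Eln*, *Mfap4*, *Mfap5*, *Matn4* and *Ccdc80*) had a mean under 10 in the 15 aged libraries and passed through their young level. Of the 13 genes that did not pass, 4 (*Lox*, *Loxl1*, *Loxl2* and *Thbs2*) had a young mean of at least 10. With no filter, 39, 37 and 40 of the 41 genes had a lower mean log2 value than in the young group at 12, 18 and 24 months, beside 52.7%, 51.1% and 49.7% of the 16928 genes with any read. The median log2 difference over the 41 genes was then -1.51, -1.23 and -1.53, and over all genes -0.02, -0.01 and 0. Without the filter 3, 3 and 6 of the 41 were called lower, beside 0.23%, 0.23% and 0.366% of all genes. Because the groups are bulk tissue, fewer cells that express a gene and less RNA of it per cell cannot be told apart.

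**Figure D1:**
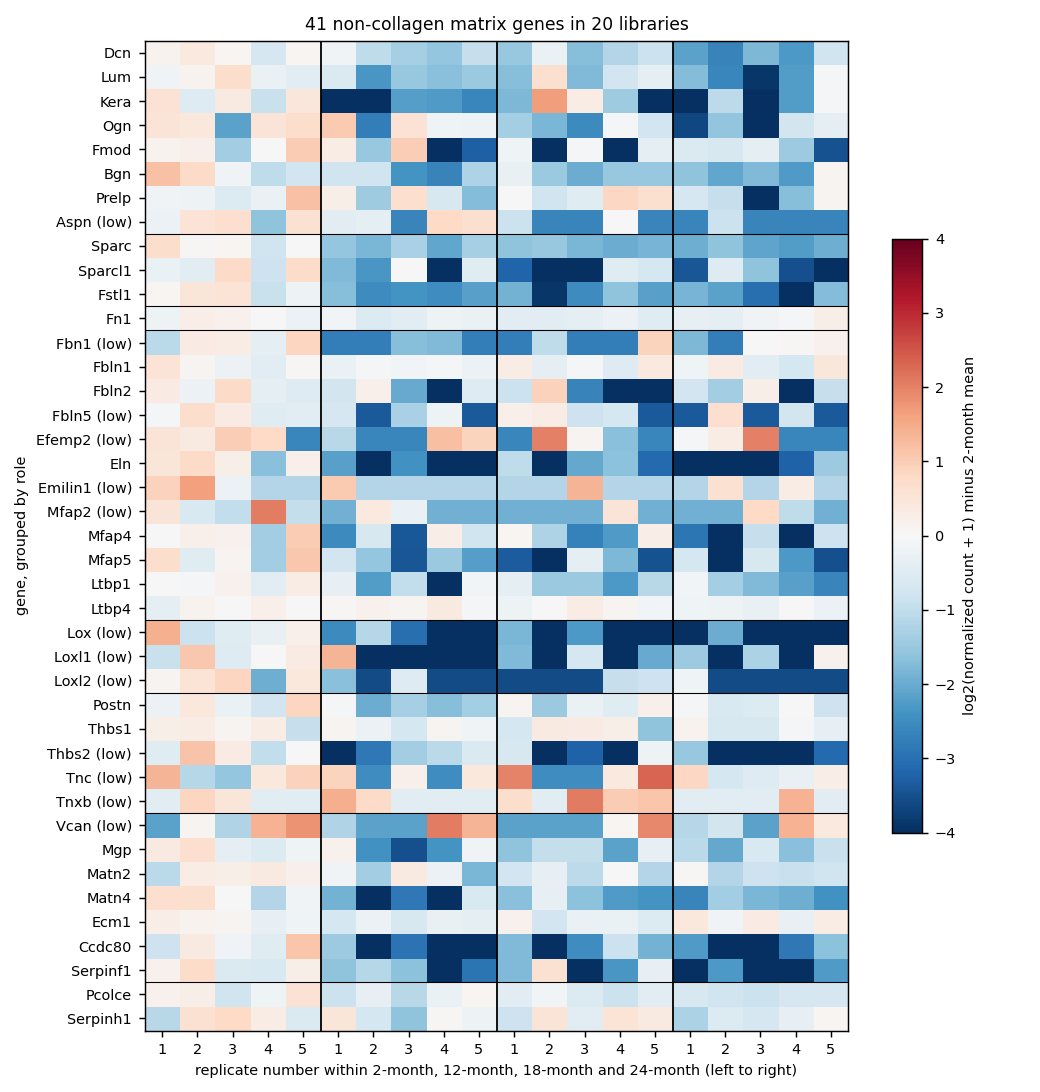
Heat map of the 41 genes (rows, grouped by role from the leucine-rich proteoglycans at the top to the collagen maturation proteins at the bottom) in the 20 libraries (columns, 5 per age, black lines between ages). Color is log2(normalized count + 1) minus the mean of the 5 young libraries, values beyond 4 are drawn as 4, and "low" marks the 13 genes too low to test. The rows of *Sparc* and *Fstl1* are blue in all 15 aged libraries, while *Fn1*, *Fbln1*, *Ltbp4* and *Ecm1* stay pale.

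The 8 small leucine-rich proteoglycans came first by role. Decorin (*Dcn*), which binds collagen fibrils and limits their width, was at 1089, 1309, 1048, 619 and 1046 normalized counts in replicates 1 to 5 of the young group. It was at 905, 489, 398, 341 and 525 at 12 months, at 349, 832, 306, 436 and 546 at 18 months and at 225, 155, 284, 199 and 571 at 24 months. The highest library of each aged group, replicate 1 at 12 months, replicate 2 at 18 months and replicate 5 at 24 months, stood apart from the other 4, and those of 12 and 18 months lay above the lowest young library, replicate 4. No 24-month library reached any young library. The group means were 1022 ± 250.2, 532 ± 221, 494 ± 210.1 and 287 ± 166 normalized counts (SD, n = 5) from 2 to 24 months. The log2 difference from the young group was -0.99, -1.10 and -1.94 at 12, 18 and 24 months (SE 0.29). Decorin was called at 24 months, 3.85-fold lower (limma adjusted p = 0.00025), and not at 12 or 18 months (limma adjusted p = 0.155 and 0.0933). At 18 months the adjusted p was under 0.05 in the fit of only these 2 groups, with voom, and without young replicate 4, 18-month replicate 2 or 24-month replicate 5 (lowest limma adjusted p = 0.0257). At 12 months it was under 0.05 without 12-month replicate 1 (limma adjusted p = 0.0471). The study chose *Dcn* for its own heat map on these libraries, so its direction here is not independent evidence. Separately, the paper reported lower *Dcn* with age by qPCR in other female mice and in males.

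Decorin lies on chromosome 10 next to the genes of lumican and keratocan (GRCm38, chr10:97479500-97518163, chr10:97565501-97572703 and chr10:97606962-97613688). Lumican (*Lum*), a keratan sulfate proteoglycan that keeps fibrils evenly spaced, and keratocan (*Kera*), whose expression is typical of keratocytes, are given per library as well, although they were chosen after their values were seen. Lumican was at 63.6, 77.2, 114, 57.2 and 51.2 normalized counts in the young libraries, 46.0, 13.2, 23.6, 21.0 and 24.2 at 12 months, 20.7, 109, 19.8, 40.3 and 54.2 at 18 months and 20.5, 10.6, 3.78, 13.9 and 67.8 at 24 months. All 12-month libraries lay below the young ones, whereas 18-month replicates 2 and 5 and 24-month replicate 5 lay within the young range. Lumican missed the threshold at 24 months with a log2 difference of -2.10 (95% interval -3.22 to -0.98, limma adjusted p = 0.0702), and it passed after quantile normalization and without 24-month replicate 5 (lowest limma adjusted p = 0.00546). Keratocan was at 42.8, 19.5, 36.5, 14.8 and 38.9 in the young group, 0, 0, 5.36, 5.01 and 3.82 at 12 months, 7.32, 91.5, 34.9, 9.85 and 0 at 18 months and 0, 13.0, 0, 5.22 and 27.3 at 24 months. The 12-month libraries were all below the young range, and 18-month replicate 2 held more than any young library. Its log2 differences of -3.36, -1.23 and -2.61 had limma adjusted p-values of 0.214, 0.916 and 0.376.

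Biglycan (*Bgn*), the X-linked relative of decorin that also binds collagen, was at 86.6, 64.5, 33.8, 18.0 and 21.8 normalized counts in the young libraries. The aged libraries held 21.1, 21.0, 6.43, 5.01 and 15.3 at 12 months, 30.5, 12.9, 8.73, 12.5 and 12.6 at 18 months and 11.7, 8.13, 10.4, 6.96 and 40.5 at 24 months. The young libraries themselves spread widely and overlapped with each aged group. The log2 differences of biglycan were -1.59, -1.36 and -1.53 (SE 0.58), with limma adjusted p-values of 0.314, 0.595 and 0.335, so none was called. Osteoglycin (*Ogn*), another keratan sulfate carrier of the cornea, had group means of 28.7 ± 13.7, 25.8 ± 17.7, 10.7 ± 7.58 and 8.02 ± 7.85 from 2 to 24 months (SD, n = 5). Its 12-month mean differed from the young mean by less than the SD of either group, and its log2 difference at 24 months was -2.19 (95% interval -3.89 to -0.48). Fibromodulin (*Fmod*), which guides fibril growth, was at 23.6 ± 12.6, 15.1 ± 18.1, 10.7 ± 9.91 and 10.1 ± 6.14, and *Prelp*, which anchors basement membrane to connective tissue, at 21.5 ± 13.0, 15.6 ± 11.2, 21.9 ± 10.7 and 9.48 ± 7.73. Neither was called, and the 18-month mean of *Prelp* was as high as the young one (log2 difference 0.04, 95% interval -1.40 to 1.48). Asporin (*Aspn*), which binds collagen and TGF-β, was too low to test, with 1 to 11 reads per young library and 0 to 3 per 24-month library. Osteoglycin and asporin are neighbors on chromosome 13, and fibromodulin and *Prelp* on chromosome 1. Of the 7 tested proteoglycans of this family 4, 2 and 6 had an unadjusted limma p under 0.05 at 12, 18 and 24 months, all lower. Of all genes tested, 4.96%, 3.84% and 5.04% were lower at this threshold.

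**Figure D2:**
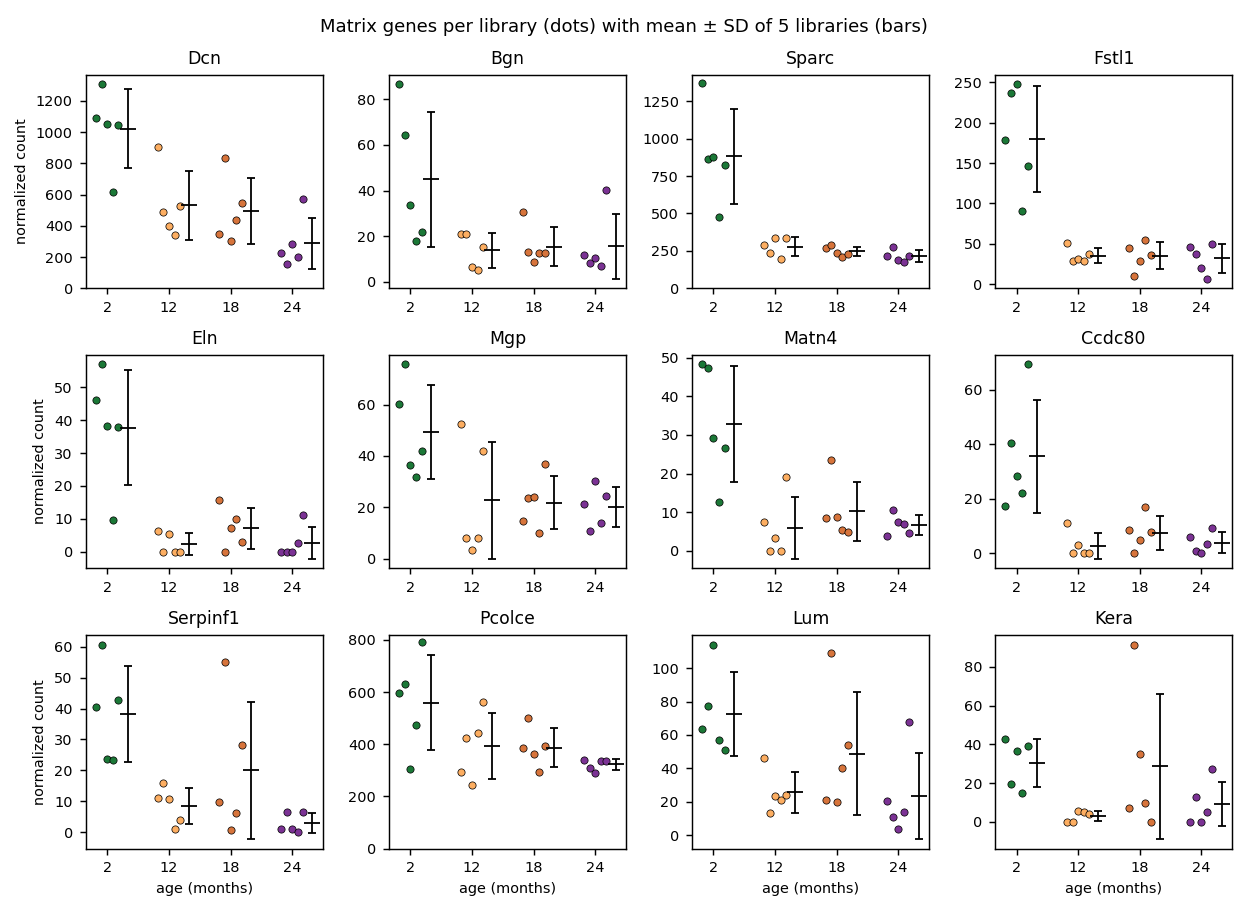
Normalized counts (y axis, linear, separate scale per gene) by age in months (x axis) for the 10 genes named by the rule and for *Lum* and *Kera*. Each dot is 1 library in the order of replicates 1 to 5, and the bar beside the dots is the mean with the SD of 5 libraries. For *Sparc* and *Fstl1* every aged dot lies below every young dot, whereas *Lum* and *Kera* have aged libraries within or above the young range.

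The SPARC family held the clearest difference. *Sparc*, a collagen-binding matricellular protein that takes part in collagen processing, was at 1369, 867, 878, 476 and 822 normalized counts in the young libraries. At 12 months it was at 287, 234, 339, 196 and 335, at 18 months at 271, 289, 235, 212 and 232 and at 24 months at 215, 276, 191, 178 and 217. The lowest young library, replicate 4, stood above the highest of the 15 aged libraries. The 3 aged groups were narrow and overlapped with each other, with means of 278 ± 62.4, 248 ± 31.0 and 215 ± 37.6 against 882 ± 319 in the young group (SD, n = 5). *Sparc* fell 3.06-fold at 12 months, 3.38-fold at 18 months and 3.91-fold at 24 months (log2 differences -1.61, -1.76 and -1.97, SE 0.21, limma adjusted p = 4.93e-05, 1.81e-05 and 1.16e-06). The libraries that stood high for *Dcn* did not stand apart for *Sparc*: 12-month replicate 1 was the third of its 5, 24-month replicate 5 was the second, and 18-month replicate 2 was the first by a small margin. *Sparc* was also part of that heat map of the study.

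*Fstl1* encodes a secreted glycoprotein that shares a domain with SPARC and modulates growth factor signaling. In the young libraries it was at 179, 236, 247, 90.1 and 146 normalized counts. It was at 51.5, 28.9, 31.1, 29.1 and 37.0 at 12 months, 45.1, 10.6, 28.6, 54.6 and 36.7 at 18 months and 45.8, 37.4, 19.9, 6.96 and 49.9 at 24 months. Again the lowest young library was above all aged libraries. *Fstl1* fell 4.77-fold, 5.32-fold and 6.22-fold at 12, 18 and 24 months (log2 differences -2.25, -2.41 and -2.64, SE 0.46, limma adjusted p = 0.013, 0.00462 and 0.00155). Its call at 12 months was lost without young replicate 2 or young replicate 3 (limma adjusted p = 0.0525 and 0.0511). *Sparcl1*, the closest relative of *Sparc*, had lower and more scattered values, with means of 34.0 ± 17.3, 13.5 ± 12.5, 8.46 ± 10.6 and 6.86 ± 8.78 from 2 to 24 months (SD, n = 5). Its log2 differences of -1.71, -2.87 and -2.81 were not called (limma adjusted p = 0.621, 0.349 and 0.256), and in 3 of the 15 aged libraries it had no read.

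Fibronectin (*Fn1*), the adhesion protein of provisional matrix, had short intervals at every age. Its means were 1052 ± 163, 847 ± 100.4, 793 ± 55.8 and 959 ± 164 normalized counts from 2 to 24 months (SD, n = 5). The log2 differences from the young group were -0.31, -0.40 and -0.14 (95% intervals -0.57 to -0.04, -0.66 to -0.13 and -0.40 to 0.13), and none was called (limma adjusted p = 0.418, 0.279 and 0.78). At 24 months the interval left out any fall larger than 0.40 on the log2 scale. An antisense gene, *Apol7d*, overlaps its exons, and it had 4.98 normalized counts on average.

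**Figure D3:**
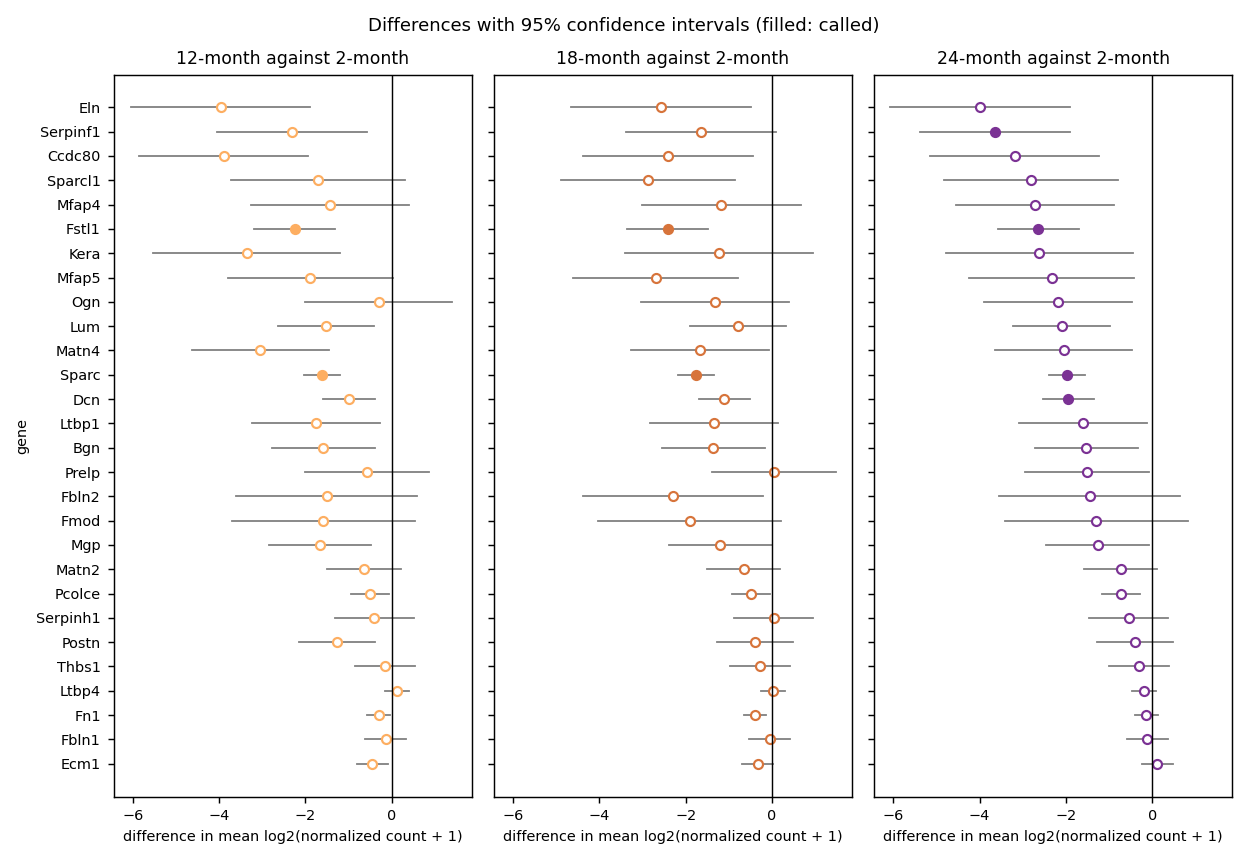
Differences in mean log2(normalized count + 1) from the young group (x axis) at 12, 18 and 24 months (panels) for the 28 tested genes (y axis, ordered by the 24-month value). Points are the estimates, grey lines their 95% intervals from limma, and filled points the called genes. The intervals of *Sparc*, *Fstl1* and *Dcn* are short and below 0 in all 3 panels. Those of *Fn1*, *Fbln1*, *Ltbp4* and *Ecm1* are short and include 0 at 24 months. At 12 and 18 months the *Fn1* intervals lie below 0, as do the *Ecm1* estimates and, at 12 months, the *Ecm1* interval. Intervals of genes with few reads, such as *Eln* and *Kera*, span over 4.

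Elastic fiber genes were a list of 12, of which 7 were tested. Elastin (*Eln*), the core protein of elastic fibers, was at 46.0, 57.0, 38.4, 9.54 and 37.9 normalized counts in the young libraries. It was at 6.43, 0, 5.36, 0 and 0 at 12 months, 15.9, 0, 7.15, 9.85 and 2.9 at 18 months and 0, 0, 0, 2.61 and 11.3 at 24 months. No read was found in 7 of the 15 aged libraries and in none of the young ones. The 12-month libraries lay below the young range, while 18-month replicates 1 and 4 and 24-month replicate 5 were above its lowest library, replicate 4. With few reads the estimates were wide, -3.97, -2.58 and -3.98 on the log2 scale (SE 1.02), and none of the 3 ages was called alone (limma adjusted p = 0.0731, 0.527 and 0.0652). At 24 months *Eln* was called after quantile normalization, with no filter, in the fit of only these 2 groups, with a pseudocount of 10 and without 18-month replicate 2 or 24-month replicate 5 (lowest limma adjusted p = 0.00563). At 12 months it was called with a pseudocount of 10 and without 12-month replicate 1 or 18-month replicate 2 (lowest limma adjusted p = 0.00748). All aged libraries against the young ones gave a log2 difference of -3.51 (limma adjusted p = 0.0305), a call that was lost without young replicates 1, 2, 3 or 5 (limma adjusted p = 0.095 to 0.146), with the replicate block and with a pseudocount of 0.1.

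Fibulin-1 (*Fbln1*), a calcium-binding glycoprotein of basement membranes and elastic fibers, and *Ltbp4*, which stores latent TGF-β and supports elastic fiber assembly, were measured with short intervals around 0. *Fbln1* had means of 192 ± 52.2, 169 ± 11.1, 185 ± 51.2 and 181 ± 61.2 normalized counts and *Ltbp4* of 450.2 ± 65.8, 488 ± 56.1, 456 ± 63.8 and 394 ± 29.3 from 2 to 24 months (SD, n = 5). Their log2 differences at 24 months were -0.11 (95% interval -0.58 to 0.36) and -0.18 (95% interval -0.46 to 0.10). The interval of *Ltbp4* held no change larger than 0.46, and that of *Fbln1* none larger than 0.58. *Ltbp1*, a further binding protein of latent TGF-β, was at 35.2 ± 6.52, 16.6 ± 13.5, 14.4 ± 7.67 and 13.3 ± 11.0 (log2 differences -1.76, -1.35 and -1.61, limma adjusted p = 0.404, 0.746 and 0.447). The microfibril proteins *Mfap4* and *Mfap5* had means of 23.7 ± 12.6, 10.7 ± 9.6, 12.3 ± 10.6 and 4.73 ± 5.65 and of 25.2 ± 15.3, 6.09 ± 4.05, 4.69 ± 6.59 and 6.07 ± 6.42, and fibulin-2 (*Fbln2*) of 21.9 ± 9.0, 10.8 ± 9.17, 10.6 ± 17.0 and 10.8 ± 8.95. None of these 4 was called. Exons of *Mfap4* overlap those of *Mapk7* on the other strand, which had 70.4 normalized counts on average, and the strand setting of the counting is not given in the sources used here.

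The other 5 elastic fiber genes were too low to test. Fibrillin-1 (*Fbn1*), the backbone of microfibrils, had 2 to 12 reads per young library and 0 to 1, 0 to 12 and 0 to 7 at 12, 18 and 24 months. *Fbln5*, which links elastin to cells, had 55, 17, 31 and 25 reads in all over the 5 libraries at 2, 12, 18 and 24 months. *Efemp2* (fibulin-4) had 37, 23, 28 and 38, *Emilin1* 12, 4, 6 and 5 and *Mfap2* 22, 5, 5 and 7. None of these 5 was called in the limma fit without the filter. *Fbn1* was lower in every 12-month library than in every young one (exact permutation p = 0.00794, two-sided, the smallest that 5 libraries against 5 can give, and 0.513 adjusted over all 16928 genes with reads). After this adjustment the smallest p of any gene at 24 months was 0.381.

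The lysyl oxidases, copper enzymes that start the crosslinking of collagen and elastin, were all below the filter. *Lox* had 40, 11, 12, 12 and 19 reads in the young libraries, 2, 5, 1, 0 and 0 at 12 months, 3, 0, 3, 0 and 0 at 18 months and 0, 4, 0, 0 and 0 at 24 months. Each young library held more reads than any aged library, and 9 of the 15 aged libraries held none. The exact permutation p of *Lox* was 0.00794 at each age (two-sided, the smallest possible, 0.381 after adjustment at 24 months). In the limma fit without the filter *Lox* was called at 18 and 24 months (log2 differences -3.27 and -3.64, limma adjusted p = 0.0176 and 0.00667) and narrowly missed the threshold at 12 months (limma adjusted p = 0.0506). *Loxl1* had 7, 44, 11, 14 and 20 reads in the young libraries and 43, 0, 0, 0 and 0 at 12 months, so that a single 12-month library, replicate 1, carried all of that group's reads. It had 3, 0, 11, 0 and 3 reads at 18 months and 5, 0, 6, 0 and 18 at 24 months. *Loxl2* had 74, 10, 12 and 10 reads in all at 2, 12, 18 and 24 months, and an antisense gene overlaps its exons. Neither was called without the filter (limma adjusted p of *Loxl1* 0.325, 0.551 and 0.545, and of *Loxl2* 0.27, 0.334 and 0.158).

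Of the 5 matricellular genes outside the SPARC family, periostin (*Postn*), which is linked to wound healing and collagen assembly, and thrombospondin-1 (*Thbs1*), an activator of latent TGF-β, could be tested. Periostin had means of 48.2 ± 22.5, 20.1 ± 13.2, 36.4 ± 14.3 and 34.1 ± 9.01 normalized counts from 2 to 24 months (SD, n = 5). Its value was lowest at 12 months (log2 difference -1.28, limma adjusted p = 0.263) and closer to the young level at 18 and 24 months (-0.39 and -0.41). Thrombospondin-1 was at 92.0 ± 26.5, 79.7 ± 17.1, 82.1 ± 38.9 and 72.2 ± 17.6, with 24-month and young libraries overlapping (log2 difference -0.31, 95% interval -1.01 to 0.38). Thrombospondin-2 (*Thbs2*), a regulator of fibril shape, was too low to test, with 10, 48, 22, 7 and 17 reads in the young libraries and 5, 0, 0, 0 and 1 at 24 months, where the groups did not overlap (exact permutation p = 0.00794, two-sided, 0.381 after adjustment). The tenascins *Tnc* and *Tnxb* were too low as well. *Tnc* had 31, 20, 52 and 25 reads in all at 2, 12, 18 and 24 months and *Tnxb* 3, 4, 11 and 3, and these were the low genes whose 18-month total was above the young one.

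The 7 other secreted glycoproteins and proteoglycans held 1 call by age. *Serpinf1* encodes pigment epithelium-derived factor, a secreted inhibitor of vessel growth. It was at 40.6, 60.7, 23.7, 23.3 and 42.7 normalized counts in the young libraries, 11.0, 15.8, 10.7, 1.00 and 3.82 at 12 months, 9.76, 55.1, 0.794, 6.27 and 28.0 at 18 months and 0.975, 6.5, 0.946, 0 and 6.59 at 24 months. All 12-month and all 24-month libraries lay below the young ones, while 18-month replicates 2 and 5 lay within the young range. *Serpinf1* fell 12.5-fold at 24 months (log2 difference -3.65, SE 0.85, limma adjusted p = 0.03), and the values at 12 and 18 months were not called (limma adjusted p = 0.314 and 0.72). This call was close to the threshold: it was lost with voom, with a pseudocount of 0.1, and without young replicates 1, 2, 4 or 5 or 24-month replicates 1, 3 or 4, and leaving out those libraries gave a limma adjusted p from 0.0529 to 0.112.

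*Ccdc80*, a secreted protein that binds matrix and is best known from fat tissue, was at 17.5, 40.5, 28.3, 22.3 and 69.2 normalized counts in the young libraries. It was at 11.0, 0, 3.21, 0 and 0 at 12 months, 8.54, 0, 4.76, 17.0 and 7.74 at 18 months and 5.85, 0.813, 0, 3.48 and 9.41 at 24 months. In each aged group all 5 libraries were below all 5 young ones. Its log2 differences of -3.89, -2.41 and -3.19 (SE 0.96) missed the threshold at each age (limma adjusted p = 0.0562, 0.533 and 0.144). All aged libraries against the young ones gave -3.17 (limma adjusted p = 0.0409). That call was lost without young replicates 1, 2, 3 or 4, 12-month replicate 3 or 24-month replicates 2, 3 or 4 (limma adjusted p = 0.0502 to 0.154), and without young replicate 5 *Ccdc80* was under the filter and not tested. It was also lost with the replicate block and with a pseudocount of 0.1. Conversely, *Ccdc80* was called at 12 months after quantile normalization, with no filter, with a pseudocount of 10 and without 12-month replicate 1, 18-month replicate 2 or 24-month replicate 3, and at 24 months after quantile normalization and with a pseudocount of 10 (lowest limma adjusted p = 0.00878 and 0.0142). *Serpinf1* and *Ccdc80* were in another heat map that the study chose on these libraries. For *Serpinf1* the paper also reported a fall with age by qPCR in other mice of both sexes.

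Matrilin-4 (*Matn4*), an adaptor protein that bridges fibrils and proteoglycans, was at 48.2, 47.2, 29.2, 12.7 and 26.6 normalized counts in the young libraries, 7.35, 0, 3.21, 0 and 19.1 at 12 months, 8.54, 23.5, 8.73, 5.38 and 4.83 at 18 months and 3.9, 10.6, 7.57, 6.96 and 4.71 at 24 months. At 24 months all its libraries lay below the young ones, and at 12 and 18 months 1 library of each group, replicate 5 and replicate 2, lay within the young range. The log2 differences of -3.04, -1.67 and -2.05 had limma adjusted p-values of 0.0726, 0.656 and 0.326, and at 12 months *Matn4* was called with a pseudocount of 10 and without 12-month replicate 5 (lowest limma adjusted p = 0.0225). *Matn4* stood in the study's heat map with *Dcn* and *Sparc*. Matrix Gla protein (*Mgp*), an inhibitor of calcification, was at 60.3, 75.7, 36.5, 31.8 and 41.7 in the young group, 52.4, 7.89, 3.21, 8.02 and 42.1 at 12 months, 14.6, 23.5, 23.8, 9.85 and 36.7 at 18 months and 21.5, 10.6, 30.3, 13.9 and 24.5 at 24 months. At 12 months replicates 1 and 5 lay within the young range and the other 3 far below it. The log2 differences of *Mgp* were -1.66, -1.20 and -1.26 (limma adjusted p = 0.288, 0.687 and 0.459).

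Matrilin-2 (*Matn2*) had means of 59.7 ± 18.9, 41.6 ± 23.5, 37.2 ± 13.7 and 35.1 ± 13.4 normalized counts (SD, n = 5), with log2 differences of -0.64, -0.66 and -0.73 that were not called. *Ecm1*, a glycoprotein made by skin keratinocytes that is mutated in lipoid proteinosis, had means of 479.7 ± 78.4, 349 ± 47.2, 387 ± 96.9 and 525 ± 109.7. It was the single tested gene of the 28 with a higher value than the young group at 24 months (log2 difference 0.12, 95% interval -0.24 to 0.48, limma adjusted p = 0.876), after lower values at 12 and 18 months (-0.45 and -0.33). Versican (*Vcan*), a large hyaluronan-binding proteoglycan, was too low to test, with 0 to 15 reads per young library and 0 to 12 per 24-month library.

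Of the 2 proteins that act on procollagen itself, *Pcolce* enhances the enzyme that trims its C-terminal end. *Pcolce* was at 595, 631, 307, 473 and 792 normalized counts in the young libraries, 293, 425, 244, 444 and 562 at 12 months, 387, 499.6, 361, 293 and 395 at 18 months and 341, 309.8, 291, 337 and 335 at 24 months. Young replicate 3 lay within the range of every aged group, and the 24-month libraries were closer together than those of any other age. The log2 differences were -0.50, -0.48 and -0.73 (SE 0.21), and none was called (limma adjusted p = 0.439, 0.624 and 0.139). Without young replicate 3 the value at 24 months passed (limma adjusted p = 0.0203). Exons of *Fbxo24* on the same strand overlap *Pcolce*, and *Fbxo24* had 4.09 normalized counts on average. *Serpinh1*, the collagen chaperone HSP47, had means of 46.9 ± 23.4, 35.1 ± 17.5, 45.8 ± 17.6 and 29.6 ± 10.2 from 2 to 24 months (SD, n = 5), with log2 differences of -0.40, 0.04 and -0.55 that were not called.

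The question of further change among the aged groups was addressed by the comparisons of 24-month with 12-month, 18-month with 12-month and 24-month with 18-month libraries. None of the 28 genes was called in any of these by limma, beside 0.195%, 0.00886% and 0% of all genes tested. With voom on the recovered reads 0 were called as well. An unadjusted limma p under 0.05 was reached by 4, 1 and 5 of the 28 genes, beside 14.7%, 7.43% and 5.31% of all genes. Decorin had the lowest of these p-values among the genes that were lower, with a log2 difference of -0.96 between 24 and 12 months (SE 0.29, limma adjusted p = 0.137). *Ecm1* was higher at 24 than at 12 months by 0.57 (95% interval 0.21 to 0.93, limma adjusted p = 0.137). For *Sparc* the log2 difference between 24 and 12 months was -0.35 (95% interval -0.78 to 0.07), and for *Fstl1* it was -0.38 (95% interval -1.32 to 0.55). These comparisons and those with the young group share libraries.

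Genes of other cell types were measured beside the matrix genes, since the scraped layer can carry cells of the stroma below and of the conjunctiva. The 5 fibrillar collagens, the main stromal collagens, summed to 1059.6 to 3369 normalized counts per young library and to 265 to 659, 310.5 to 539.6 and 149 to 415 at 12, 18 and 24 months. All 5 were tested, and 3, 4 and 4 of them were called lower, with *Col1a1* at group means of 929, 116, 123 and 73.1. Of all genes tested, 0.301%, 0.337% and 0.47% were called lower at 12, 18 and 24 months. Of 20 keratocyte markers that encode no matrix protein 14 were tested, none was at 0 in all libraries, and 2, 1 and 2 were called lower. With an unadjusted limma p under 0.05 there were 5, 3 and 7 of the 14, all lower, beside 4.96%, 3.84% and 5.04% of all genes tested, and the median log2 difference of the 14 was -0.57, -0.47 and -1.12 at 12, 18 and 24 months. The called ones were *Nt5e* at all 3 ages, with means of 629, 165, 284 and 193, and *Igfbp5* at 12 and 24 months, with means of 976, 607, 808 and 656. The summed level of this list was 2997 to 4499 in the young libraries, 2390.0 to 3393 at 12 months, 2702 to 3629 at 18 months and 2372 to 3515 at 24 months. The tested ones of highest mean were *Gas1* at 1261, 1064, 1200.1 and 1171, *Igfbp5* and *Lrp1* at 480.4, 569, 556 and 514, and neither *Gas1* nor *Lrp1* was called. Most of the summed level came from *Gas1*, *Igfbp5*, *Nt5e* and *Lrp1*. Of the tested ones with lower levels, *Vim* had means of 129.7, 73.1, 92.6 and 56.6, *Igfbp4* of 116, 65.2, 76.8 and 56.5 and *Mmp2* of 45.9, 13.9, 14.2 and 6.67, genes chosen after their values were seen. None of these 3 was called (24-month log2 differences -1.24, -1.01 and -2.94, limma adjusted p = 0.322, 0.266 and 0.199). Other tested ones fell less or rose. *Pdgfra* had log2 differences of -0.22, 0.06 and -0.53 and *Mme* of -0.30, -0.20 and -0.85 at 12, 18 and 24 months. *Ptgds* had means of 0, 109, 5.66 and 0, with 532.5 in its highest 12-month library. None of them was called. At any size, 12, 11 and 12 of the 14 were lower and 2, 3 and 1 were higher at 12, 18 and 24 months. The paper also reported lower *Mmp2* with age by qPCR in other mice of both sexes. All 12 corneal epithelial markers were tested and 0 were called by limma or voom (1, 0 and 1 with an unadjusted limma p under 0.05), *Krt12*, *Krt15* and *Aldh3a1* among them, with sums of 468419 to 588894, 484899 to 515048, 496990 to 528310 and 504693 to 545591. Of 11 conjunctival and goblet cell markers 6 were tested, and *Krt4* was called lower at all 3 ages (means 4518, 2171, 2109.8 and 1545) and *Krt19* at 12 and 18 months (means 1264, 723, 727 and 895), while *Krt13* was not called. Their part in the values of the matrix genes was not tested.

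Markers of further cell types gave 0 calls at any age against the young group by limma, and 0 by voom. This held for corneal endothelium (3 of 5 tested, *Slc4a11*, *Col8a1* and *Slc4a4*), vascular endothelium (2 of 8, *Kdr* and *Flt1*), pericytes and muscle (1 of 7, *Acta2*), leukocytes (8 of 12, led by *Cd74*, *H2-Aa* and *H2-Ab1*), melanocytes (2 of 6, *Dct* and *Pmel*) and 10 of 10 early stress genes, led by *Junb*, *Hspa1a* and *Hspa1b*. Over these 26 tested genes an unadjusted limma p under 0.05 was reached by 4, 5 and 7 at 12, 18 and 24 months. Of these, 3, 1 and 3 were lower, beside 4.96%, 3.84% and 5.04% of all genes tested. The other 1, 4 and 4 were higher, beside 4.6%, 3.34% and 4.93%. Of the 10 early stress genes, 1, 3 and 4 were among the higher ones, and 1, 1 and 1 were among the lower ones. The summed leukocyte level was 374 to 605, 248 to 382, 328 to 671 and 268 to 375 normalized counts from 2 to 24 months. With an unadjusted limma p under 0.05 there were 1, 0 and 2 leukocyte genes, all lower. At any size 7, 6 and 8 of the 8 tested leukocyte genes were lower. Their median log2 difference was -0.61, -0.28 and -0.99, beside -0.010, -0.0011 and 0.0052 over all genes tested.

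**Figure D4:**
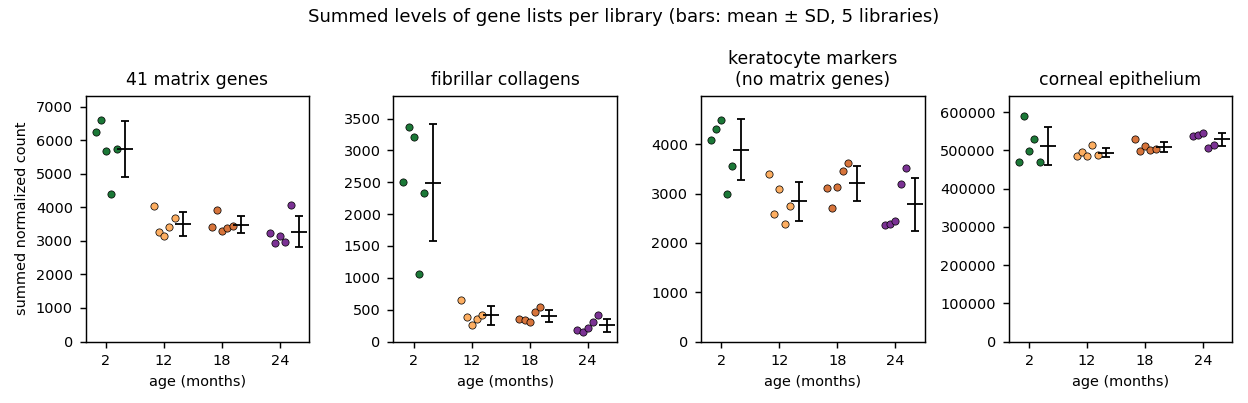
Summed normalized counts (y axis, linear from 0, separate scale per panel) by age in months (x axis) of the 41 matrix genes, the 5 fibrillar collagens, 20 keratocyte markers without matrix genes and 12 corneal epithelial markers. Dots are libraries and bars the mean with the SD of 5 libraries. The sums of the collagens and of the 41 genes do not overlap between young and aged libraries, those of the keratocyte markers overlap, and those of the epithelial markers overlap widely.

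Some libraries that stood high or low for the matrix genes did so for these lists as well. Young replicate 4 was the lowest young library for 16 of the 28 tested matrix genes and also had the lowest young sums of fibrillar collagens (1059.6) and keratocyte markers (2997). Other libraries did not follow this: young replicate 5 was the highest young library for 9 of 28. Its collagen and keratocyte sums were the second lowest of the young group (2334 and 3553). The 24-month replicate 5 was the highest of its age for 14 of the 28 genes and had the highest 24-month sums of both lists (415 and 3515). The 12-month replicate 1 was the highest of its age for 12 of 28, again with the highest collagen and keratocyte sums of its age (659 and 3393). The 18-month replicate 2, the highest of its age for 9 of 28, including *Dcn*, *Lum*, *Kera* and *Serpinf1*, was also the lowest of its age for 9 of 28. It had the lowest keratocyte sum of its age (2702) and the second lowest collagen sum (331). The keratocyte sums are mostly those of *Gas1*, *Igfbp5*, *Nt5e* and *Lrp1*. What sets these ranks of the libraries was not tested. Without any 1 of the 20 libraries, 1 to 5 genes were called at 12 months, 2 or 3 at 18 months and 3 to 6 at 24 months. At 12 months, 1 gene was called without young replicate 2 or 3, 4 without 18-month replicate 2 and 5 without 12-month replicate 1.

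Genes that act on or beside the same matrix gave 1 call by age, at 24 months. Of all genes tested, 0.301%, 0.337% and 0.47% were called lower at 12, 18 and 24 months. Of 83 further matrix genes 78 were in the table and 23 were tested, and dermatopontin (*Dpt*), a small decorin-binding protein, was the one called by age, lower at 24 months (log2 difference -1.90, limma adjusted p = 0.0196, group means 97.8, 36.1, 39.6 and 27.3). With all aged libraries against the young ones *Dpt* was called lower and *Frem1*, a basement membrane protein, higher, at means of 3.36, 20.01, 27.2 and 18.1. The tested genes of this list with the highest means were *Tgfbi* at 4407, 3981, 4188 and 4205, *Efemp1* at 1012, 772, 924 and 984 and *Fras1* at 673, 976, 896 and 831, none of them called. The median log2 difference of the 23 was -0.17, -0.07 and -0.06 at 12, 18 and 24 months. With an unadjusted limma p under 0.05, 3, 1 and 3 of the 23 were lower and 3, 2 and 2 higher. Of all genes tested, 4.96%, 3.84% and 5.04% were lower and 4.6%, 3.34% and 4.93% higher at this threshold. Of 24 collagen processing genes 13 were tested and of 33 genes of glycosaminoglycan synthesis 24, with 0 calls by limma or voom at any age against the young group. Unadjusted limma p-values under 0.05 were reached by 0, 0 and 3 genes of the first list and 1, 1 and 2 of the second. *P4hb*, *Ppib* and *Colgalt1*, which modify or fold collagen chains, had 24-month log2 differences of -0.07, 0.04 and 0.11. The sulfate donor enzymes *Papss1* and *Papss2* and the galactosyltransferase *B4galt1* had -0.03, -0.28 and 0.31.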

How the data were processed

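RNA of scraped corneal epithelium (100 ng, both corneas of 1 mouse) was made into 3′ libraries by the authors and sequenced as single reads. Per the authors' methods and the labels, reads were trimmed with cutadapt, checked with FastQC, aligned to GRCm38 with STAR and counted with HTSeq, and the counts were normalized with DESeq2. Tool versions and the strand setting are not given in the sources used here. The authors divided each count by a size factor, added 1 and deposited the log2 value. Undoing these steps returned whole reads within a tolerance for 100% of values. The tolerance was 0.01 reads and widened in proportion to the count for highly expressed genes, where the check says little. The tables also hold the authors' own comparisons, which give each gene a mean signal, a fold change and raw and adjusted p-values as deposited. None of these columns was used.

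Python 3.11.15 with pandas 2.3.3 and numpy 2.4.6 handled the values, and matplotlib 3.10.9 drew the plots. The 4 ages were fitted in limma 3.58.1 (R 4.3.3) with the variance prior following mean expression, on the 11288 genes whose mean normalized count reached 10, and all aged libraries against the young ones in a fit of 2 groups. Adjusted p-values (Benjamini-Hochberg) are over all genes tested. Exact permutation tests used all splits of 5 libraries against 5, two-sided, with a smallest p of 0.00794. The fit was tested on simulated data. The 41 genes and all lists were chosen with earlier results of these data known. A further marker list is not reported here. Genes called in a comparison, or with an unadjusted p under 0.05 at all 3 older ages, are given per library. Other tested genes are given by group means, genes under the filter by reads, and from each further list the called genes and up to 3 tested genes of highest mean are named. The alternatives were quantile normalization, no filter or a filter of 50, a fit of the 2 groups alone, a replicate block, a fold threshold of 1.5 or none, pseudocounts of 0.1 and 10, voom on the recovered reads, and leaving out each library. Positions came from RefSeq (GRCm38.p6) for all 41 genes. In GENCODE, exons of *Aspn*, *Efemp2*, *Eln*, *Fbn1*, *Fn1*, *Lox*, *Loxl2*, *Matn2*, *Matn4*, *Mfap4*, *Pcolce*, *Prelp*, *Thbs1*, *Tnc* and *Tnxb* overlap a gene on the other strand, and without the strand setting reads of such pairs cannot be told apart.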

Additional observations from a re-analysis of the deposited data

Results flagged for a closer look

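In groups of 5 libraries, a library was singled out where its gap to the nearest other library, divided by the range of the group, was above Dixon's critical value of 0.71. For normally distributed values, chance alone gives this in about 1 of 20 groups. Whether the normalized counts have this distribution was not tested, and some groups hold few reads. The groups of different genes also share libraries, so this rate cannot be taken as the one for these data. In the 48 groups of 12 genes given per library, 5 were found. All 5 were the highest library of their group.

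Replicate 5 of the 24-month group was singled out for 3 genes. *Bgn* was at 40.5 normalized counts there against 6.96 to 11.7 in the other 4 libraries, *Eln* at 11.3 against 0 to 2.61, and *Lum* at 67.8 against 3.78 to 20.5. In the 18-month group *Matn4* was at 23.5 in replicate 2 against 4.83 to 8.73, and *Bgn* at 30.5 in replicate 1 against 8.73 to 12.9. The 24-month replicate 5 also had the highest sum of fibrillar collagens of its age, and the part of this in the 3 values was not tested.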

How the results depend on the processing

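The calls of *Sparc* at all ages, of *Fstl1* at 18 and 24 months and of *Dcn* at 24 months held under every alternative run, as did those of *Sparc*, *Fstl1* and *Dcn* with all aged libraries together. Over the 13 calls of single genes, 354 of the recomputed values kept their call and 27 lost it, in *Fstl1* at 12 months, *Serpinf1* at 24 months and *Eln* and *Ccdc80* with all aged libraries. None changed direction. Among genes not called, the sign of small differences turned under some alternatives for *Ogn* at 12 months, *Fbln1*, *Ltbp4*, *Prelp*, *Thbs1* and *Serpinh1* at 18 months and *Fbln1* at 24 months.

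The number of genes called at 12 months was 5 in place of 2 with a pseudocount of 10. At 24 months it was 7 in place of 4 after quantile normalization. With all aged libraries together it was 13 in place of 5 with voom, and 3 with a filter of 50, where fewer genes are tested, with a pseudocount of 0.1 and with the replicate block. The cause of the other shifts was not tested, and the shares of all genes called under these alternatives are not given here. Leaving out each library in turn gave 1 to 5 genes at 12 months, 2 to 3 at 18 months, 3 to 6 at 24 months, 3 to 6 with all aged libraries together (3 without young replicate 1, 2 or 5) and 0 between aged groups. All other counts stayed within 1.5 times.

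Replicate numbers did not pair libraries: over 30 pairs of same-numbered libraries the deviations from the group means correlated at -0.30 to 0.16 (median 0.0077), 3 pairs were over 0.1, and 1 of the 20 libraries was closest to its own number. With the replicate block 2, 2 and 4 genes were called at 12, 18 and 24 months and 3 with all aged libraries together, without *Eln* and *Ccdc80*. Genes with few reads had wide intervals, so changes of less than several-fold could not be seen in them.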
